A study of Mus musculus with 9 samples.

Results

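The complement genes studied here are 34 genes for the components, regulators and receptors of the complement system. They were taken by symbol from a list of names, and all 34 were found among the 27179 genes of the deposited table. The libraries were polyA RNA-seq of the livers of C57BL/6J mice that the labels call wild type. At 17 months of age every mouse received, by retro-orbital injection, 3e+11 vector genomes of AAV8-TBG-saCas9 with a U6-driven guide, and a liver lobe was frozen 3 weeks later. The guide was sgCcnd1 in 5 libraries, against Ccnd1, the gene of cyclin D1, and sgRosa26 in 4 control libraries, against the Rosa26 locus. Controls and knockouts therefore shared the virus, the nuclease and the age. The TBG promoter is active in hepatocytes, so the cut was aimed at hepatocytes, while the RNA came from every cell type of the lobe. The labels name no batch and no sex, and each mouse is taken as a replicate.

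Complement is a cascade of plasma proteins. The classical pathway starts when C1q binds antibody or a damaged surface, the lectin pathway when mannose-binding lectins or ficolins bind sugars, and the alternative pathway runs from C3 itself with factor B, factor D and properdin. All 3 routes cleave C3 and then C5, release the peptides C3a and C5a, and end in the membrane attack complex of C5b to C9. Most plasma components are made by hepatocytes, whose output of C3 and factor B belongs to the acute-phase response. C1q is the main exception, since its chains are made by macrophages, in the liver by Kupffer cells. The members were accordingly split by known source into 22 hepatocyte-made genes, 5 macrophage-made genes (C1qa, C1qb, C1qc, Fcna and Cfp), 2 receptors of myeloid cells (C3ar1 and C5ar1) and 5 genes of other or mixed source (C7, Cfd, Cd55, Cd59a and Cr1l).

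The sequences upstream of genes of the 2 sources are shown for 4 members that the comparisons turn on, C1qb and C1qc for the macrophage-made class and C3 and C9 for the hepatocyte-made class. Each is the 250 bases before the annotated start, from RefSeq on GRCm38.p6, written 5′ to 3′ on the gene's own strand. Capitals mark 2 searched motifs on either strand, GAGGAA (a core of sites for PU.1, a transcription factor of myeloid cells) and TTNNGNAA (a form of the C/EBP site, C/EBP factors being active in hepatocytes and myeloid cells). C1qb lies at chr4:136886201-136886450 and C1qc at chr4:136892915-136893164, both on the minus strand, C3 at chr17:57228137-57228386 on the minus strand and C9 at chr15:6445096-6445345 on the plus strand.
C1qb: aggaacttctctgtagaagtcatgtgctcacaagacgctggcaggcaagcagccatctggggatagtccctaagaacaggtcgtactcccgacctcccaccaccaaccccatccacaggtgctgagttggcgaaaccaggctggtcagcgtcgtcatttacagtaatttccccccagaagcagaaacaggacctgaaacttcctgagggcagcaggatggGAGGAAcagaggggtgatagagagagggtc
C1qc: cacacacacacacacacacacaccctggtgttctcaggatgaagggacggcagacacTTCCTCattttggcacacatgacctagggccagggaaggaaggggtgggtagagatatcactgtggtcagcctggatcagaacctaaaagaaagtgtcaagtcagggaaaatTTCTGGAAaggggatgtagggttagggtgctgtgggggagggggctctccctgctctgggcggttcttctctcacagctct
C3: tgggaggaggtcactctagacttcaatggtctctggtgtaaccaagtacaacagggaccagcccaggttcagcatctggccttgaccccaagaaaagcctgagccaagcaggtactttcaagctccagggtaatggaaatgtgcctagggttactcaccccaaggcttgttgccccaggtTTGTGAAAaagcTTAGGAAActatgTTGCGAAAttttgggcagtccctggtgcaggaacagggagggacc
C9: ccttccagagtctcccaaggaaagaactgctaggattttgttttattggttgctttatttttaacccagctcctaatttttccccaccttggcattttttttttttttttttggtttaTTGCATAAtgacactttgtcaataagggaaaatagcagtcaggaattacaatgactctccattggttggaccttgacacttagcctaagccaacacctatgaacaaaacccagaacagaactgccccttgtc
GAGGAA stood 30 bases before the C1qb start and, on the opposite strand, 193 bases before that of C1qc. TTNNGNAA stood at 3 places in the C3 window, 70, 58 and 45 bases before the start, and once in the windows of C1qc and C9. A window was found for 25 of the 34 members. GAGGAA was in 3 of 4 macrophage-made windows and 0 of 14 hepatocyte-made windows, against 23.3% of 32851 windows of the same length. TTNNGNAA was in 7 of 14 and 2 of 4, against 36.8%. GTTAAT, a core of the HNF1 site, was in 6 of 14 hepatocyte-made windows and 1 of 4 macrophage-made windows, against 6.43%. These are matches of letters only.

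Values are normalized counts, reads per gene divided by a size factor of the library. In the order of the table's columns, the control libraries are named A, B, C and D and the knockout libraries E, F, G, H and I; they held 10840595 to 20176201 reads in genes. Summed levels of 10 hepatocyte markers were 1762789 to 2055099 in controls and 1645987 to 2120756 in knockouts. Most of each sum was Alb, at 1247278 to 1677964. The mean log2 level of the 10 markers was 15.42 ± 0.04 (SD, n = 4) in controls and 15.49 ± 0.08 (n = 5) in knockouts. Of these markers 6 were higher and 4 lower, with a median log2 difference of 0.06. Normalized counts of Ccnd1 were 684, 800, 625 and 867 in A to D and 428, 347, 370, 339 and 325 in E to I, so the groups did not overlap. Ccnd1 fell by 1.03 on the log2 scale (SE 0.115), with a Benjamini-Hochberg adjusted p of 0.0116 by limma, the test used throughout, and an exact two-sided permutation p of 0.00794, the smallest that 4 libraries against 5 allow. This call was lost when any of B, D, F, H or I was left out (differences of -1.11 to -0.96 over all leave-outs). Library H stood apart, with 2.00 normalized counts of the Y-linked gene Ddx3y against 810 to 1154 in the other 8. Libraries A and G stood apart in acute-phase genes, with summed levels of 469357 and 508028 against 263822 to 362342 in the other 7. Values without these libraries are given beside the results that they moved most.

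No complement gene passed the adjusted test. Of 34 members, 12 were lower and 22 higher in sgCcnd1 livers, with adjusted p from 0.326 to 0.969 by limma. The same test called 0.0077% of all 12993 genes tested lower (Ccnd1 alone) and 0.0% higher. DESeq2 and edgeR, run on the recovered reads, also called 0 members, with smallest adjusted p of 0.192 and 0.328. DESeq2 called 0.549% of genes lower and 0.267% higher. At an unadjusted limma p under 0.05, C1qa and C1qc were lower and C9 higher, which is 8.82% of members against 5.74% of all genes lower and 5.22% higher. The groups did not overlap for 0 members, against 1.97% of all genes lower and 1.92% higher. The share of members with small p was thus close to that of all genes. The median log2 difference was 0.09 over the members and 0.01 over all genes.

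**Figure D1:**
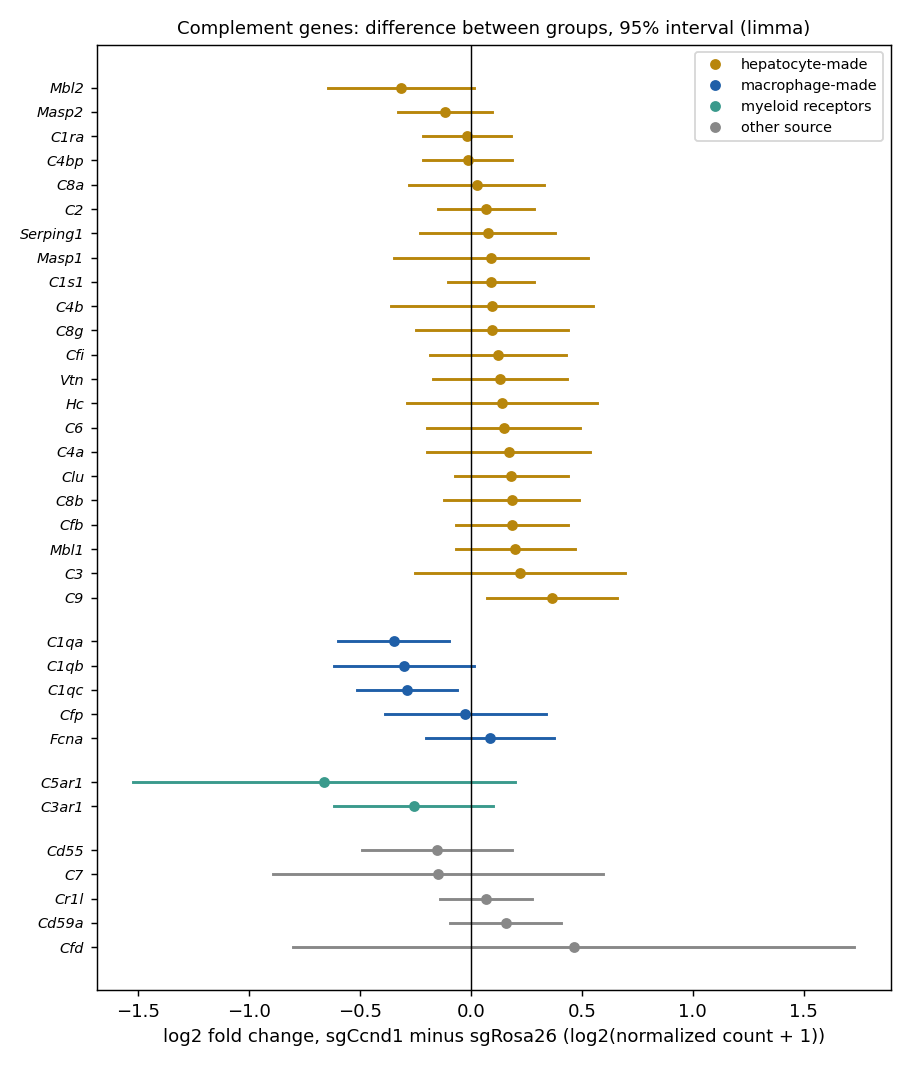
Difference between sgCcnd1 and sgRosa26 livers for each of the 34 complement genes, on the log2(normalized count + 1) scale (x axis), grouped by source; points are limma estimates from 5 and 4 libraries and bars are unadjusted 95% intervals. Intervals of C1qa and C1qc lie below 0, that of C9 lies above 0, and the other 31 include 0.

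The 2 source classes lay on opposite sides of 0. Of the 22 hepatocyte-made genes, 18 were higher and 4 lower, with a median log2 difference of 0.11 and a range of -0.32 to 0.37. Of the 5 macrophage-made genes, 4 were lower and 1 higher, with a median of -0.29 and a range of -0.35 to 0.09. Over all genes 52.9% were higher. The mean log2 level of the hepatocyte-made genes was 12.81 ± 0.14 (SD, n = 4) in controls and 12.90 ± 0.13 (n = 5) in knockouts. That of the macrophage-made genes was 8.34 ± 0.22 and 8.17 ± 0.11. The hepatocyte-made difference is smaller than the SD of either group, and the macrophage-made difference lies between the SDs of the 2 groups. The difference between the classes was not tested, because genes of a class share libraries and are not replicates.

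The macrophage-made difference lay in the C1q chains. C1q is built from A, B and C chains, which are encoded side by side on the minus strand of chromosome 4 within 18.7 kb (GRCm38). Normalized counts of C1qa (Entrez 12259, chr4:136895916-136898844) were 511, 690, 573 and 623 in controls and 537, 475, 474, 487 and 380 in knockouts. All but E of the knockouts were below the lowest control, A. The log2 difference of C1qa was -0.35 (SE 0.114, 95% interval -0.60 to -0.10), with a limma p of 0.00994, an adjusted p of 0.326 and an exact permutation p of 0.0238.

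For C1qc (Entrez 12262, chr4:136889801-136892936) the normalized counts were 413, 472, 426 and 563 in controls and 417, 392, 355, 357 and 385 in knockouts. Again 4 of 5 knockouts were below every control and E was not. The log2 difference was -0.29 (SE 0.103, interval -0.51 to -0.06), with an adjusted p of 0.344 by limma and an exact permutation p of 0.0238. C1qb (Entrez 12260, chr4:136880126-136886200) had 150, 226, 171 and 181 in controls and 191, 136, 148, 129 and 133 in knockouts. Here E exceeded 3 of the 4 controls and the other 4 knockouts lay below all controls. The C1qb difference was -0.30 (SE 0.146, interval -0.62 to 0.02; limma adjusted p 0.474, exact permutation p 0.103).

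Summed over the 3 chains, the normalized count was 1250 ± 152 (SD, n = 4) in controls and 999 ± 90.0 (n = 5) in knockouts. Within a library the chains kept similar proportions, C1qb being 26.5% to 35.5% and C1qc 68.4% to 101% of C1qa. Since only E was not below every control, leaving it out necessarily separated the groups for all 3 chains. The log2 differences were then -0.40, -0.40 and -0.32 for C1qa, C1qb and C1qc (limma adjusted p 0.214, 0.262 and 0.273). Without E, 4.25% of all genes separated in that direction. Leaving out A separated C1qa (-0.42) and C1qc (-0.35), against 3.63% of all genes. Over all single leave-outs the differences ranged from -0.42 to -0.27 for C1qa (nearest to 0 without I), -0.40 to -0.19 for C1qb (without B) and -0.35 to -0.20 for C1qc (without D). Without H the differences of C1qa, C1qb and C1qc were -0.36, -0.26 and -0.27. The C1qa difference kept an unadjusted p under 0.05 in 23 of 23 alternative fits, that of C1qc in 21 and that of C1qb in 4. No adjusted p of these chains passed 0.05 in any of them.

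**Figure D2:**
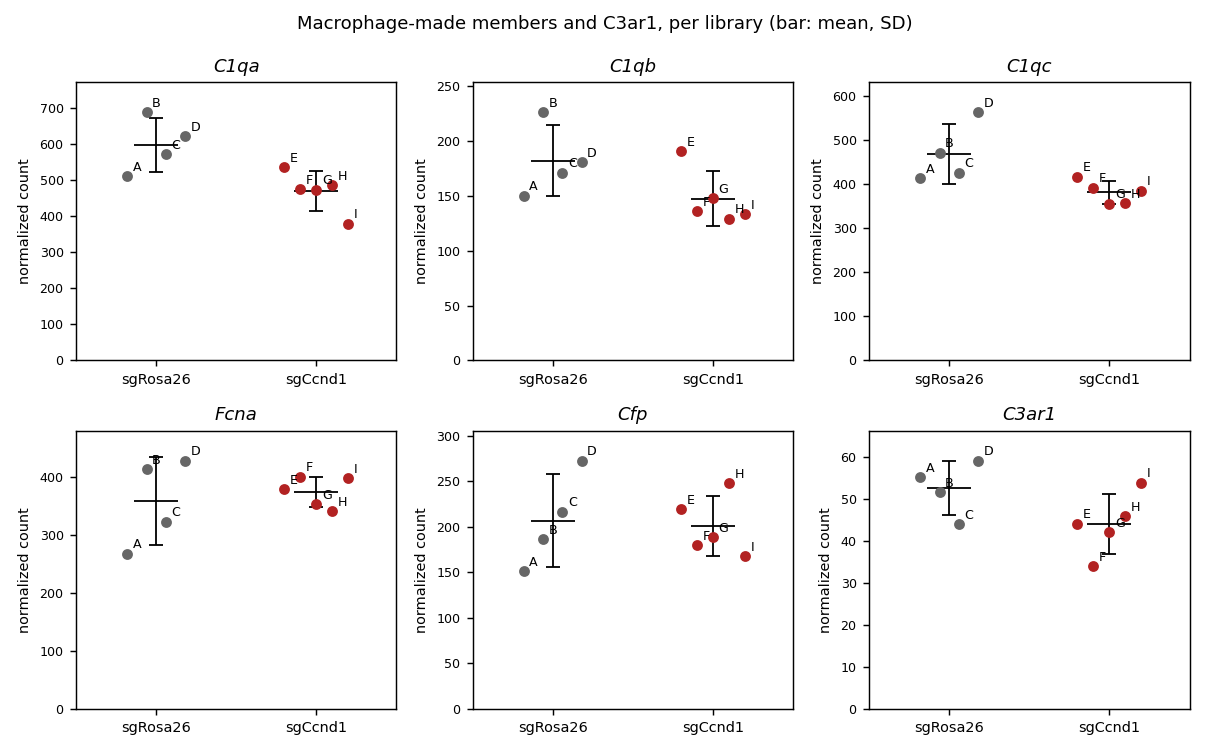
Normalized counts per library for the 3 C1q chains, Fcna, Cfp and C3ar1, with each library as a lettered point and bars at the group mean and SD (n = 4 and 5); y axes start at 0. For each C1q chain 4 of 5 sgCcnd1 libraries lie below every control and E does not, while the groups of Fcna and Cfp overlap throughout.

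The other macrophage-made members did not share this pattern. Fcna, which encodes ficolin A, a lectin-pathway sensor, had 268, 415, 324 and 429 normalized counts in controls and 380, 401, 353, 342 and 399 in knockouts. The knockouts lay within the range of the controls, and the log2 difference was 0.09 (interval -0.20 to 0.38, limma adjusted p 0.847). Cfp encodes properdin, which stabilizes the alternative-pathway convertase, and had 207 ± 51.5 (SD, n = 4) and 201 ± 32.6 (n = 5), a difference of -0.02 (interval -0.39 to 0.34). Every knockout lay within the range of the controls for Cfp also.

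Markers of Kupffer cells, which make C1q, and of other immune cells were read beside it. The summed level of 10 Kupffer cell markers was 2571 to 3481 in controls and 2459 to 3074 in knockouts, with 6 genes lower, 4 higher and a median log2 difference of -0.03. Clec4f, a lectin that defines Kupffer cells, differed by -0.06 (limma adjusted p 0.913), and by 0.02 without H. Cd68, a lysosomal protein of macrophages, differed by -0.71 (limma adjusted p 0.245, DESeq2 0.0282). Vsig4, a complement receptor of Kupffer cells, and Csf1r, the receptor of a macrophage growth factor, differed by -0.25 and -0.17, and for both, 4 of 5 knockouts were below the lowest control and E was not. Cd163, a scavenger receptor, differed by 0.63, with 4 of 5 knockouts above the highest control and E not (limma adjusted p 0.514), and by 0.32 without A and G. The other 5 markers (Timd4, Cd5l, Marco, Adgre1 and Folr2) differed by -0.06 to 0.11. H was the highest library for Marco (376 against 9.15 to 125), Timd4 (117) and Adgre1 (225), and for Marco DESeq2 gave 0.79 and edgeR 0.77 (adjusted p 0.832 and 0.720). Monocyte and neutrophil markers summed to 247 to 392 in controls and 159 to 250 in knockouts, with 6 of 7 genes lower. The groups did not overlap for Cd68, for Ccr2 and Csf3r among the monocyte and neutrophil markers, and for Mzb1 among those of B and plasma cells, all lower, against 1.97% of all genes. B and plasma cell markers were lower for 6 of 6 genes, with a median log2 difference of -0.45 and overlapping sums of 228 to 451 and 171 to 412. T and NK cell markers were lower for 5 of 5 genes, with a median log2 difference of -1.41 (-1.52 to -1.06) and all 5 at an unadjusted limma p under 0.05, against 5.74% of all genes, at sums of 70.1 to 214 and 30.0 to 148 (38.3 to 148 without H, the lowest). The part of these cells in the C1q difference was not tested, and in bulk tissue fewer cells of a type and less RNA per cell cannot be told apart.

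The receptors of the anaphylatoxins C3a and C5a are carried by myeloid cells and were among the members at the lowest level. C3ar1 (chr6:122847140-122856157) had 55.3, 51.7, 44.1 and 59.2 normalized counts in controls and 44.2, 34.0, 42.1, 46.0 and 53.9 in knockouts. The groups overlapped, and the log2 difference was -0.26 (SE 0.164, interval -0.61 to 0.10; limma adjusted p 0.584, exact permutation p 0.111). C5ar1 (chr7:16246743-16259540) had 25.8, 33.3, 16.0 and 28.2 against 19.1, 21.5, 15.7, 5.0 and 25.5. Its difference of -0.66 (interval -1.52 to 0.20, limma adjusted p 0.560) moved to -0.30 without library H, the lowest. Without C it was -0.87 (limma p 0.0656, adjusted 0.492) and the groups separated by 25.5 against 25.8, where 3.26% of all genes separated in that direction.

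**Figure D3:**
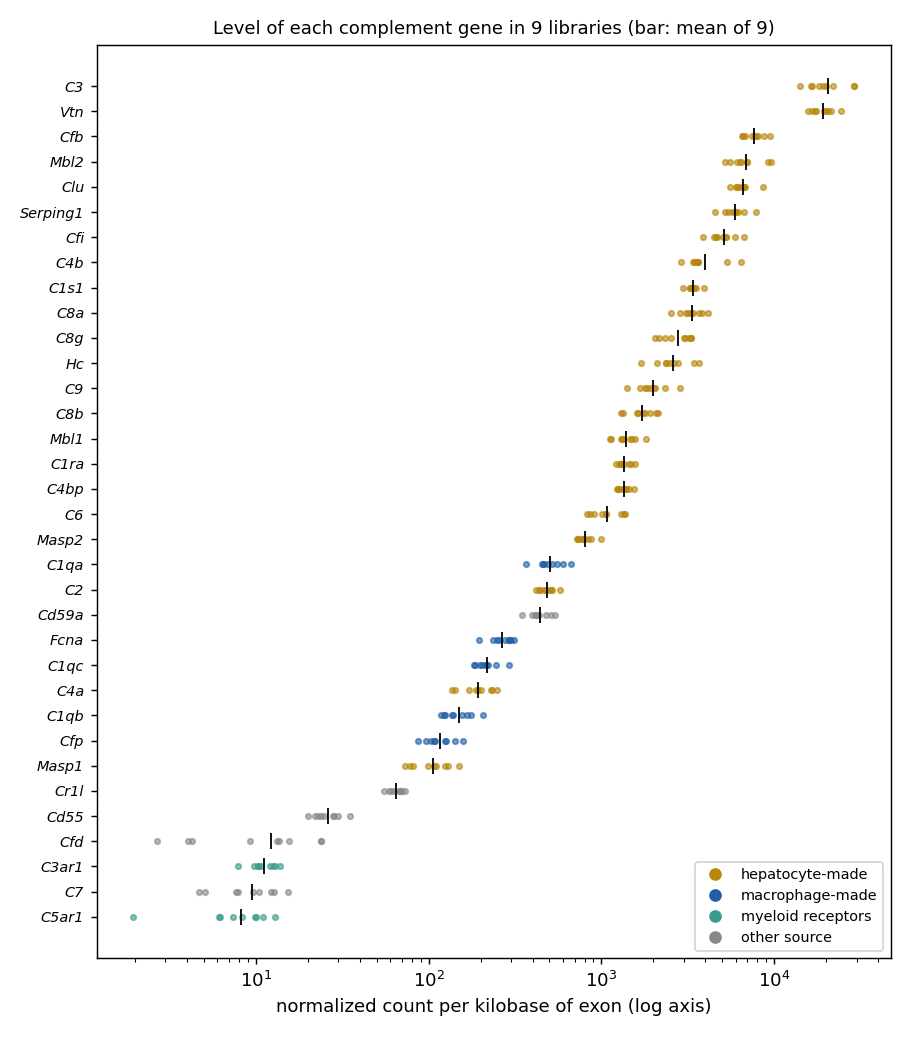
Normalized counts per kilobase of exon for each complement gene on a log10 axis, ordered by level; each point is 1 of the 9 libraries, coloured by the source of the gene, and the vertical bar is their mean. The order runs from C3 (20488) and Vtn (19150) at the top to C7 (9.54) and C5ar1 (8.21) at the bottom.

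Per kilobase of exon, hepatocyte-made genes were the most abundant members. C3 averaged 20488 normalized counts per kb over the 9 libraries and Vtn, for vitronectin, an inhibitor of membrane attack complex insertion, averaged 19150. In controls these were 19052 ± 6813 and 18150 ± 2148 (SD, n = 4), so their order was not separated by the spread. Cfb (7690), Mbl2 (6917), Clu (6579), Serping1 (5947) and Cfi (5103) followed, then C4b (3972). C1qa (507), Fcna (268), C1qc (218), C1qb (150) and Cfp (117) were the macrophage-made genes on that scale. Hepatocyte-made C2 (482) and C4a (193) lay among them, and Masp1 (106) below them. C7 (9.54), C3ar1 (11.1), C5ar1 (8.21) and Cfd (12.3) were lowest.

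C3 (Entrez 12266, chr17:57203967-57228136), the protein on which all pathways converge, varied widely between libraries. Its normalized counts were 149890, 72909, 84844 and 84299 in A to D and 93055, 99205, 148551, 102926 and 112663 in E to I. Control A was the highest library of all, and each knockout exceeded the other 3 controls. The log2 difference was 0.22 (SE 0.218, interval -0.25 to 0.70; limma adjusted p 0.731, exact permutation p 0.373). Without A it was 0.45 (limma p 0.0222, adjusted 0.320) with separated groups, and without both A and G it was 0.34 (adjusted p 0.414), also separated, as were 5.79% of all genes in that direction. It was nearer to 0 without G (0.11) or without B (0.10), and ranged from 0.10 to 0.45 over single leave-outs.

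Cfb (Entrez 14962, chr17:34856374-34862514) encodes factor B, the protease of the alternative-pathway convertase, and followed C3. Its normalized counts were 24632, 18398, 19209 and 18746 in controls and 21158, 22227, 26575, 21852 and 22735 in knockouts. Every knockout exceeded B, C and D, and A exceeded all knockouts but G. The log2 difference was 0.18 (SE 0.116, interval -0.07 to 0.44; limma adjusted p 0.579), and without A it was 0.28 (limma p 0.0184, adjusted 0.303) with separated groups. C3 and Cfb were the 2 members that separated upwards without A, where 4.37% of all genes did.

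Cfd, for factor D, which cleaves bound factor B, was low and scattered, at 2.46, 21.9, 3.75 and 12.6 normalized counts in controls and 12.2, 14.3, 3.92, 22.0 and 8.52 in knockouts. The spread within each group was wider than any difference between them (0.46, interval -0.80 to 1.73). It was 0.03 without A, 0.69 without D and 0.78 without G, and the count models gave 0.23 (DESeq2) and 0.20 (edgeR). Cfd is best known as an adipocyte product, and in these libraries the adipocyte genes Adipoq and Plin1 were at most 1.0, Retn was at most 1.94 and Lep was at 0. Plin4, a lipid droplet coat protein of the same marker list, was present in every library, at 77.0 to 238 normalized counts (means of 160 and 152). Cidec, a lipid droplet gene that hepatocytes also make, was 50.4, 434, 130 and 482 in controls and 204, 404, 151, 375 and 356 in knockouts. A, C and G were the lowest libraries for both Cidec and Cfd.

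**Figure D4:**
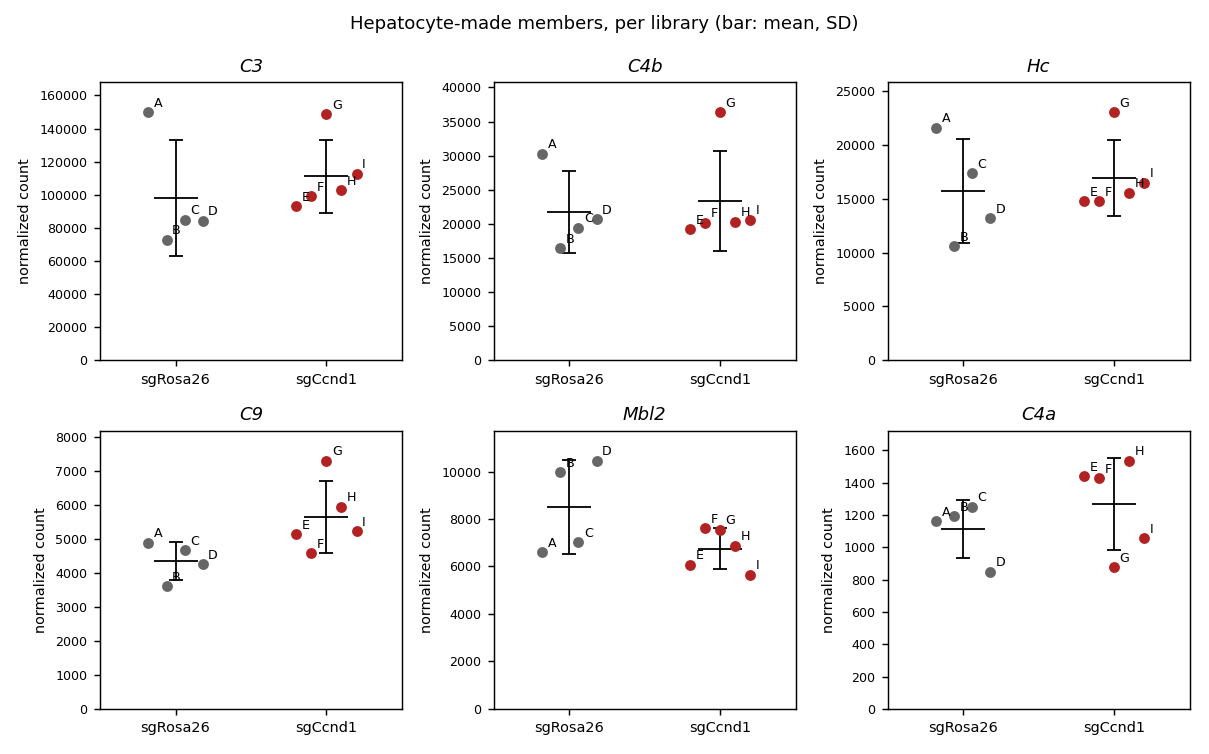
Normalized counts per library for the hepatocyte-made genes C3, C4b, Hc, C9, Mbl2 and C4a, with each library as a lettered point and bars at the group mean and SD (n = 4 and 5); y axes start at 0. Library A is the highest control for C3, C4b and Hc, G is the highest knockout for these and C9, and Mbl2 is highest in controls B and D.

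The terminal components build the membrane attack complex, and 6 of 7 were higher, with a median log2 difference of 0.14. C9 (Entrez 12279, chr15:6445346-6498825), which polymerizes into the pore, had the smallest p. Its normalized counts were 4897, 3606, 4665 and 4260 in controls and 5149, 4590, 7312, 5958 and 5238 in knockouts. All knockouts but F exceeded the highest control. The log2 difference was 0.37 (SE 0.135, interval 0.07 to 0.66), with a limma p of 0.0184, an adjusted p of 0.358 and an exact permutation p of 0.0476. Without F the groups separated at 0.44, where 3.26% of all genes separated upwards, and without A and G the difference was 0.33 (adjusted p 0.357). It was 0.28 without B (limma p 0.0673), 0.27 without G (limma p 0.0415) and 0.26 without A, G and H (limma p 0.0576). The unadjusted p of C9 was under 0.05 in 20 of 23 alternative fits.

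Hc, the mouse gene for C5 (chr2:34983329-35068506), had 21553, 10567, 17343 and 13163 normalized counts in controls and 14763, 14736, 23004, 15558 and 16476 in knockouts. A and G were again the highest libraries, and the difference was 0.14 (interval -0.29 to 0.57, limma adjusted p 0.826). It was 0.31 without A, 0.03 without G, 0.20 without both and -0.03 without B. C6, C8a, C8b and C8g, the other parts of the complex, differed by 0.15, 0.03, 0.18 and 0.10, with limma adjusted p of 0.654 to 0.961. C7 averaged 27.2 ± 11.4 and 24.2 ± 9.12, a difference of -0.15, beside stellate cell and fibroblast markers of which 7 of 8 were lower (sums of 3966 to 6278 and 3579 to 5288); their part in the C7 value was not tested. C8a and C8b lie beside each other on chromosome 4, 11130 bases apart on opposite strands.

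The lectin sensors of hepatocytes pointed in opposite directions. Mbl2 (Entrez 17195, chr19:30232906-30239687), for mannose-binding lectin C, had 6600, 9973, 7018 and 10463 normalized counts in controls and 6069, 7608, 7543, 6868 and 5647 in knockouts. B and D were above every other library, while A and C lay among the knockouts. The log2 difference of Mbl2 was -0.32 (SE 0.151, interval -0.64 to 0.01; limma adjusted p 0.471, exact permutation p 0.143). The unadjusted p of Mbl2 was under 0.05 in 11 of 23 alternative fits, with a smallest adjusted p of 0.276 (limma, without A). The difference was -0.43 without A and -0.21 without D. It was -0.47 without A and G (limma adjusted p 0.351) and -0.50 without A, G and H (0.579). After quantile normalization it was -0.42 and the groups separated, as did those of 1.88% of all genes in that direction.

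Mbl1 (chr14:41151456-41163904), for mannose-binding lectin A, had 1772, 2102, 1785 and 2455 against 2077, 2300, 2864, 2363 and 2035. Its difference was 0.20 (interval -0.07 to 0.47, limma adjusted p 0.566). The groups overlapped, with the highest value in G, and the difference was 0.12 without G and 0.06 without A and G. The proteases that ride on these lectins, Masp1 and Masp2, differed by 0.09 and -0.12 (limma adjusted p 0.903 and 0.685).

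C4 is cleaved by both the classical and the lectin proteases. Mice carry C4b (Entrez 12268, chr17:34728139-34743902) and C4a (chr17:34809092-34823460), a close copy, in a stretch of 154 kb of the minus strand that also holds Cfb and C2, themselves 87 bases apart. The longest GENCODE M21 transcripts of the 2 genes were 96.1% identical over 5367 aligned bases, and 0 of the 10 C4a transcripts there are annotated as protein coding. The gap-free stretch of 90 bases in the coding part of C4b with the most differences is shown, with the 14 differing bases in capitals. It was chosen for this and is not typical, since the whole alignment differed at 207 of 5367 bases.
C4a: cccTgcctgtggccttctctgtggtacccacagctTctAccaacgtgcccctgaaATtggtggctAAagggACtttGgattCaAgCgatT
C4b: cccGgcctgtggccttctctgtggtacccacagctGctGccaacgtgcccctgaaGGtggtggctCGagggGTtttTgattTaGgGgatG
The stretch covers transcript bases 2725 to 2814 of C4a and 2731 to 2820 of C4b. Over the whole C4a transcript, 35.2% of 50-base stretches and 16.5% of 100-base stretches also occur in C4b, so how the counting assigned such reads bears on both values, most on the lower C4a. C4b had 30320, 16423, 19443 and 20718 normalized counts in controls and 19206, 20167, 36382, 20319 and 20602 in knockouts. A and G stood above the rest, which lay close together, and the difference was 0.09 (limma adjusted p 0.902), 0.27 without A, -0.08 without G and 0.10 without both. C4a had 1162, 1193, 1251 and 848 against 1437.8, 1427, 878, 1536 and 1057, with a difference of 0.17 (limma adjusted p 0.735), which was 0.05 without D, 0.09 without H, 0.29 without G and 0.32 without A and G. C4a was 2.41% of C4b in G, 3.83% in A and 4.09% in D, and 5.13% to 7.56% in the other 6 libraries.

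The other early components differed little between groups. C1ra and C1s1 encode the proteases carried by C1q and had means of 4090 and 10219 in controls and 4021 and 10892 in knockouts, differences of -0.02 and 0.09. C2, the serine protease of the classical convertase, differed by 0.07. Their limma adjusted p ran from 0.731 to 0.957. The 95% interval was -0.22 to 0.18 for C1ra and -0.10 to 0.29 for C1s1, while that of C1qa was -0.60 to -0.10.

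Of 5 soluble regulators, 4 were higher, with a median log2 difference of 0.12 and a smallest limma adjusted p of 0.585. Clu, for clusterin, which keeps the terminal complex out of membranes, averaged 20970 ± 1589 (SD, n = 4) and 23927 ± 3418 (n = 5), with 29816 in G; its difference was 0.18, and 0.10 without G. Vtn differed by 0.13 (0.05 without G, 0.06 without B). Cfi, the protease that inactivates C3b and C4b, differed by 0.12 (0.02 without B, 0.03 without G, 0.22 without A). Serping1, the C1 inhibitor, and C4bp, a cofactor of Cfi, differed by 0.08 and -0.01. The membrane regulators, which protect host cells, differed by -0.15 for Cd55, 0.16 for Cd59a and 0.07 for Cr1l, with limma adjusted p from 0.637 to 0.823.

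Libraries of both groups shared a pattern. For 16 of the 22 hepatocyte-made genes the highest of the 9 libraries was A or G, from either group, and for 15 the lowest was B. The highest library exceeded the lowest by 1.26-fold to 2.22-fold, most for C4b, Hc (2.18) and C3 (2.06). The median log2 distance of these genes from their mean was 0.11 in A, 0.28 in G and -0.24 in B. Summed levels of 16 acute-phase genes were 469357 in A, 508028 in G and 263822 in B, the 2 highest and the lowest of the 9. Gene by gene, A and G kept that place, at median log2 distances of 0.41 and 0.61 from the mean, while B (-0.15) was not as low as D (-0.26) or E (-0.28). Of these genes, 7 were lower and 9 higher in knockouts. A was instead the lowest library for C6, C8g and Mbl1, and D was the highest for Mbl2. The median difference of the hepatocyte-made genes was 0.05 without G, 0.17 without A, 0.03 without B and 0.10 without both A and G. The part of the acute-phase levels of A and G in these differences was not tested.

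**Figure D5:**
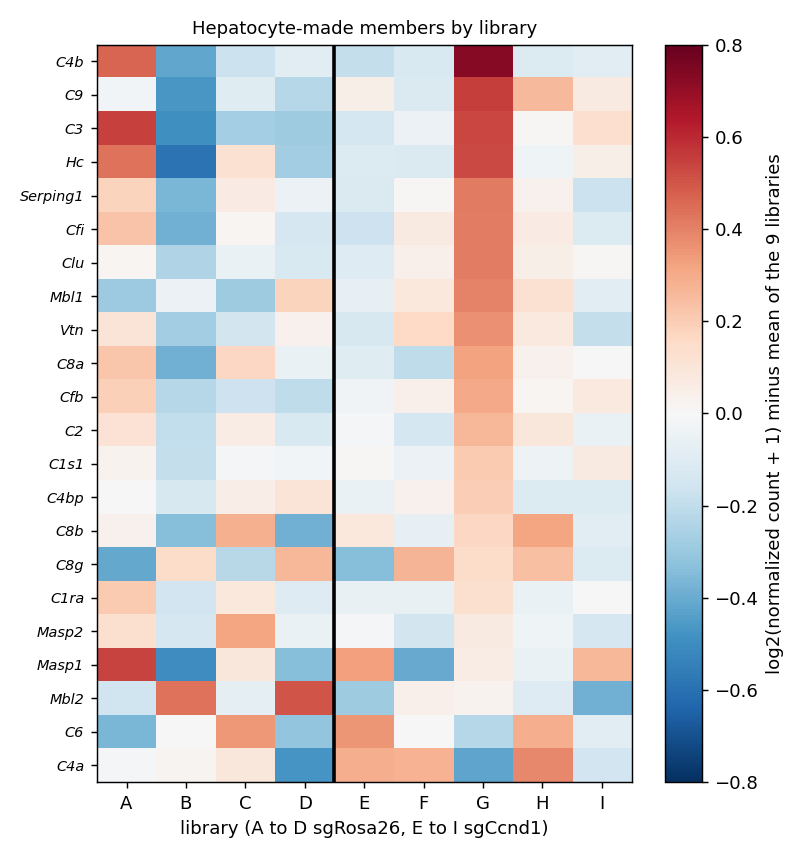
Log2(normalized count + 1) of each of the 22 hepatocyte-made genes in each library minus the gene's mean over the 9 libraries (colour scale, red higher and blue lower), with genes in rows, the control libraries in the left 4 columns and the knockout libraries in the right 5. G is the highest library in 13 rows and B the lowest in 15, while Mbl2, C6 and C4a at the bottom do not follow G.

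Counts of members moved with single libraries. Without A, the members at an unadjusted limma p under 0.05 were 4 lower (C1qa, C1qb, C1qc and Mbl2) and 3 higher (C3, C9 and Cfb), against 5.72% and 6.97% of all genes. Without B, 0 were higher and C1qa and C1qc were lower, against 3.77% and 4.09% of all genes. Without C they were C1qa, C1qc and Mbl2, lower, and C9 and C8b, higher, against 5.38% and 5.40% of all genes. Without D they were C1qa and Cd55, lower, and C9 and Mbl1, higher, against 6.41% and 4.81%. Differences of members near 0 also moved by over 1.5 times over single leave-outs, from 0.05 to 0.29 for C6, 0.09 to 0.31 for C8b, -0.18 to -0.03 for Masp2, 0.01 to 0.12 for C2 and Cr1l, 0.04 to 0.12 for C1s1, -0.30 to -0.03 for Cd55, 0.07 to 0.23 for Cd59a and -0.34 to -0.17 for C3ar1.

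A further 24 genes of the complement system outside the list were read from the same fit, and 20 passed the minimum mean of 10. Of these, 8 were lower and 12 (60.0%, against 52.9% of all genes) higher, with a median log2 difference of 0.05 and 0 past the adjusted test by limma, edgeR or DESeq2. An unadjusted limma p under 0.05 was found for 15.0% of the 20, against 5.74% of all genes lower and 5.22% higher. Among them Itgb2 and Itgax, the integrin chains of complement receptors of leukocytes, were lower. Itgb2 averaged 156 ± 21 (SD, n = 4) and 117 ± 22.5 (n = 5), a difference of -0.42 (limma adjusted p 0.337). Itgax averaged 61.0 ± 17.9 and 36.9 ± 15.0, a difference of -0.78 (adjusted p 0.417 by limma), which was -0.50 without H (adjusted p 0.647).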

How the data were processed

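Liver polyA RNA was sequenced in 9 mice. Per the submitters' processing notes, the tools were Trim Galore 0.6.7, HISAT2 2.2.1, featureCounts 2.0.3 and DESeq2 2.11.40.8 with mm10 (GRCm38); annotation and strand setting are not given in the sources used here. The deposited table holds a normalized signal, gene reads divided by a size factor by the authors; dividing by the smallest step gave whole reads for 100% of values (tolerance 0.01). Its columns name the group but no replicate number, so libraries have letters. The tested values were log2(normalized count + 1) of genes with a mean of at least 10, in limma 3.58.1 (trend, two-sided, Benjamini-Hochberg over 12993 genes). Alternatives were edgeR 4.0.16 (TMM) and DESeq2 1.42.0 on the recovered reads, other pseudocounts, filters and scalings, and leaving out libraries. The pseudocount pulls fold changes of low genes toward 0. Scripts were tested on simulated counts. Pairs of libraries within a group differed beyond sampling noise (chi-square per degree of freedom 14.1 to 45.6 in 16 pairs). Exon lengths and strands are from GENCODE M21, and gene coordinates are from RefSeq (both GRCm38). Members and lists were chosen with earlier results of these data known. Values in every library are given for members at an unadjusted p under 0.05, the C1q chains, C3, Cfb, Hc, Mbl1, Mbl2, Cfd, C4a, C4b and both receptors, and for Fcna, added after its values were seen; other complement genes are named at an unadjusted p under 0.05, of which 1 result is not reported here.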

Additional observations from a re-analysis of the deposited data

Results flagged for a closer look

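A single library stood far from the others of its group, by Dixon's criterion at the 95% level, for 5 genes in 68 groups examined; chance alone gives about 3.4, or 1 in 20. In sgRosa26 these were C3 in A, at 149890 normalized counts against 72909 to 84844 in B to D, and Cfb in A, at 24632 against 18398 to 19209. In sgCcnd1 they were all in G: C4b at 36382 against 19206 to 20602, Hc at 23004 against 14736 to 16476, and Clu at 29816 against 20902 to 23194. All 5 are hepatocyte-made and each was the highest of its group.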

How the results depend on the processing

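No paired analysis was possible because the column names hold no replicate number. Over 23 alternatives (19 planned, 4 chosen after seeing the data) 0 members were called in 774 member fits, and the smallest adjusted p was 0.192 (C1qa, DESeq2). The direction of 21 of 34 members was kept in every fit made (18 of them in all 23 alternatives; Cfd could be fitted in 18, C3ar1 and C5ar1 in 22), and the other 13 reversed 37 times, at values between -0.12 and 0.12. Quantile normalization gave -0.00429 for C1s1, -0.00787 for C2, -0.00317 for C4b, -0.0803 for C8a and -0.0319 for Serping1; 75th percentile scaling gave -0.00798 for C8a. Without A and G, C1ra was 0.0148, C8g -0.0487 and Fcna -0.0251; without A, G and H, C1ra was 0.0184, C8a -0.00784 and C8g -0.12. On the libraries other than H, C4bp was 0.00830 by DESeq2 and 0.00320 by edgeR. Leaving out each library gave ranges of -0.074 to 0.048 for C1ra, -0.077 to 0.27 for C4b, -0.030 to 0.31 for Hc, -0.098 to 0.10 for C8a, -0.023 to 0.20 for C8g, -0.058 to 0.29 for Masp1, -0.065 to 0.019 for C4bp, -0.031 to 0.15 for Serping1, -0.16 to 0.12 for Cfp, -0.046 to 0.18 for Fcna and -0.43 to 0.081 for C7. The Ccnd1 difference, -1.11 to -0.96 over leave-outs, was -1.08 without A and G (adjusted p 0.0760, limma), -1.05 without A, G and H (0.216) and -1.02 by edgeR without H (0.0559). Genes called lower were 70 by DESeq2, 27 by DESeq2 without H, 2 after quantile normalization, 0 to 2 over leave-outs, and 0 without A and G, without A, G and H, or by edgeR without H; genes called higher were 34, 11 and, without A, G and H, 1. Members whose groups did not overlap were 0 to 3 lower and 0 to 2 higher over leave-outs (2.29% to 4.25% and 2.39% to 4.37% of all genes), 1 lower after quantile normalization (1.88%), and 2 lower and 2 higher both without A and G (4.69% and 5.79%) and without A, G and H (6.01% and 7.25%). The class medians stayed at 0.03 to 0.17 for hepatocyte-made and -0.35 to -0.19 for macrophage-made members. The causes of these changes were not tested. Depth limits C5ar1, C7 and Cfd, at means under 30 counts.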
